A study of Homo sapiens with 15 samples.

Results

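The homeobox genes described here are 43 developmental transcription factor genes that lie outside the HOX clusters, from the IRX, DLX, MSX, LHX, MEIS, PBX, NKX, EN, EVX, BARX, TSHZ and SATB groups and the paired-like genes PITX1, OTX1, OTX2, GSC, ALX1, ALX4 and SHOX2. They were taken as a named list from the 20015 protein-coding genes of GENCODE v44. ATAC-seq, in which the Tn5 transposase cuts DNA that is not shielded by nucleosomes, was run on RPTEC, an hTERT-immortalised human renal proximal tubule epithelial line. There were 15 libraries in 5 groups of 3, and the deposited data are the peaks called in each library. WT cells carry intact SETD2, the methyltransferase that places trimethylation on histone H3 across transcribed genes. KO1 and KO2 are each 1 clone with SETD2 disrupted by CRISPR/Cas9 in exon 3. Rescue1 and Rescue2 are single-colony clones of knockout cells that received tagged full-length SETD2 by lentivirus and were selected with blasticidin. The names of the deposited lists carry the clone label of KO2 for both rescue clones, but the labels of the samples do not give the parent clone. No untransduced or empty-vector rescue control was among the samples. The authors describe no targeting or cloning step for WT, so KO against WT also sets clones against the parental line. The 3 libraries of a clone do not stand for separate clones, and nothing states whether they came from separate cultures, so p-values measure the spread between these libraries, which may be technical.

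Homeobox genes encode transcription factors with a homeodomain, a helix-turn-helix fold that binds short DNA sequences rich in A and T. In the embryo they assign position and cell type, and many are held silent in adult tissues by Polycomb proteins at CpG-rich promoters. IRX genes pattern the nephron along its length, DLX and MSX genes act in limb and craniofacial development, LIM-homeodomain (LHX) genes act mostly in neurons and limb, and the TALE proteins MEIS and PBX are cofactors of HOX proteins. The data bear on which of these loci carried called open chromatin in each line.

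For each gene, the bases under called peaks were summed over the gene body plus 10 kb on each side, and the promoter was taken as 1 kb on each side of the annotated gene start. A base without a called peak lay below the calling threshold of that library and need not be closed. In these bulk libraries, a site open in fewer cells and a site less open in each cell cannot be told apart. Values are given below in the order of replicates 1, 2 and 3 of a group. The lists held 196969 (WT replicate 2) to 265193 (Rescue2 replicate 1) peaks on the main chromosomes and covered 49401741 (WT replicate 2) to 65153655 bases (Rescue2 replicate 1). Read depth is unknown, since no read counts were used. Over SETD2 itself, 3880 to 6146 bases were under peaks across the 15 libraries, and peaks cannot show the frameshift. Of 13 promoters of renal epithelial marker genes, 8 to 10 were occupied per library. KRT8, KRT18, CDH16, EPCAM, PAX8 and SLC34A1 were among those occupied in all libraries, and CUBN, HNF4A and AQP1 were occupied in none. No promoter of 4 leukocyte markers was occupied, 1 of 3 endothelial markers (CDH5) and 2 of 3 neuronal markers (SNAP25 and SYP) were occupied in every library.

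Of the 43 loci, 42 had bases under peaks in at least 3 libraries and entered the fit, and OTX2, a forebrain and eye regulator, had none in any library. The limma fit covered 19229 genes on the log2(bases + 100) scale. A gene was called higher or lower where its Benjamini-Hochberg adjusted p was below 0.05 and the libraries of the groups did not overlap. In KO against WT, 10 of 42 loci (23.8%) were called higher, where 11.5% of all genes tested were, and 5 (11.9%) were called lower, where 9.25% of all genes were. The higher loci were TSHZ3, DLX5, DLX6, LHX8, SATB1, EVX1, PITX1, ALX4, BARX2 and NKX6-1, and the lower loci were IRX2, IRX4, IRX5, LHX5 and LHX6. The median log2 difference of the list was -0.0, against -0.01 over all genes, so the loci moved in both directions, and 31.0% of them differed by more than 0.5 on the log2 scale, against 13.7% of all genes. Calls were repeated with stricter peaks (−log10 q of at least 5), with lists of equal length (150000 peaks per library) and with each library scaled to its total bases under peaks, and where such a repeat ended a call between KO and WT, rescue and KO, the knockout clones or the rescue clones, this is said beside the gene. With the scaling, the split was 8 higher and 11 lower, and the median over all genes moved from -0.01 to -0.12. Over all genes the scaled split was 1970 higher and 5494 lower, where it was 2217 and 1779 without scaling. With stricter peaks 6 loci were higher and 3 lower, and over all genes 1903 and 1774. The list thus lost a larger part of its calls than all genes did. Of 98 other homeobox genes tested outside the HOX clusters, 20 (20.4%) were higher and 9 (9.18%) lower, and 28.6% differed by more than 0.5.

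**Figure D1:**
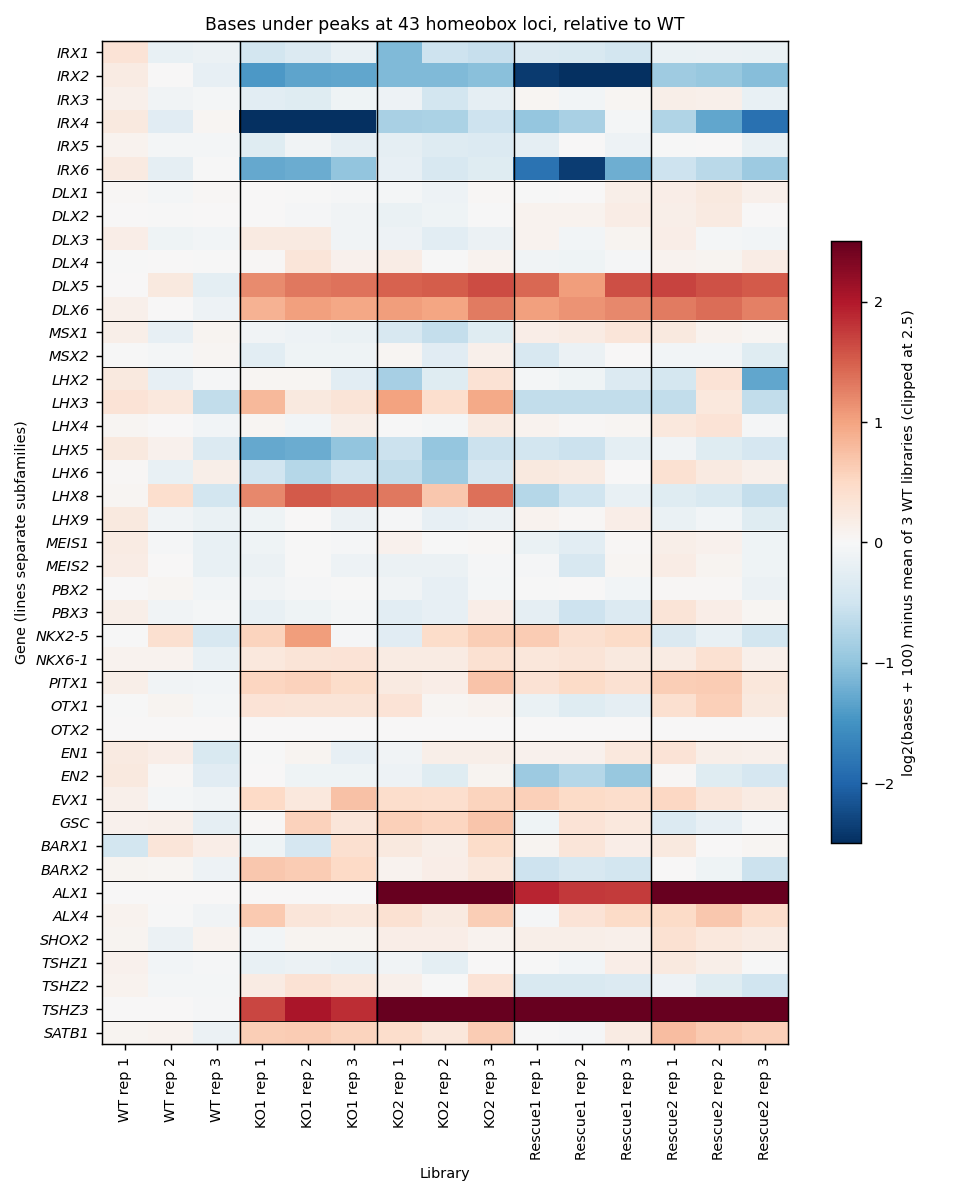
Bases under peaks at the 43 loci (rows) in the 15 libraries (columns, black lines between groups), as log2(bases + 100) minus the mean of the 3 WT libraries, with colours clipped at 2.5. TSHZ3, DLX5 and DLX6 are red in every KO and rescue library, ALX1 is red in KO2, Rescue1 and Rescue2 but not KO1, IRX2 is blue in every KO and rescue library, and most other rows stay near white.

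Promoters were mostly either occupied in every library or in none. Of the 43 promoters, 28 (65.1%) were occupied in all 15 libraries, compared with 65.5% of all protein-coding promoters, and 8 (18.6%) in none, compared with 22.4%. The promoters occupied in no library were those of IRX4, LHX2, LHX5, LHX8, NKX2-5, OTX2, EN1 and BARX1, although all of these loci but OTX2 had peaks elsewhere in their windows. Only DLX5 and TSHZ3 had a promoter occupied in all 6 KO libraries and no WT library, where 0.58% of all promoters were. The count fell with 1 kb upstream only, with stricter peaks and with equal lists. The DLX5 promoter region lay wholly downstream of the gene start, so it is not counted with 1 kb upstream only. No promoter on the list went the other way, where 0.655% of all promoters did. All-or-none occupancy between any pair of the 5 groups was found at 4 promoters (DLX5, TSHZ3, ALX1 and EVX1), against 4.84% of all promoters. The remaining mixed promoters were those of ALX4 (occupied in 10 libraries), LHX3 (3 libraries) and LHX9 (2 libraries).

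The promoters of these genes were richer in CpG than most. The observed-to-expected ratio of CpG over the 1 kb on each side of the start had a median of 0.751, against 0.613 over all protein-coding promoters. Among promoters occupied in no library the median was 0.699 for the 8 homeobox genes and 0.259 for all 4481 such promoters. These ratios describe the reference sequence and were not tested.

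Of 418 consensus regions in the windows of the 43 genes, 13 (3.11%) were gained, with peaks in each of the 6 KO libraries but in none of WT, against 4.0% of all regions in windows of protein-coding genes. The opposite pattern, called lost, was found for 15 regions (3.59%), against 2.47%. A peak in all KO1 libraries and in no KO2 or WT library was found at 1 region (0.239%), against 0.543%. The matching KO2 pattern was found at 13 regions (3.11%), against 1.16%, and 6 of these 13 lay in the TSHZ3 window. Of the 13 gained regions, 9 were held by all 6 rescue libraries and 1, near LHX8, by none, where 47.3% of all gained regions were held by all and 14.1% by none. The TSHZ3 window alone held 5 of these 9. Of the 15 lost regions, 1, near LHX6, was held by all rescue libraries and 9 by none, where 14.2% of all lost regions were held by all and 40.2% by none. The other regions were held by some rescue libraries.

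To show the regions, that with the highest fold enrichment rank of each kind is printed as the 200 bases around its middle. The bases are in lower case, from hg38, plus strand. Any match to TAATTA (a homeodomain palindrome), TGACAG (a TALE motif) or TGANTCA (the AP-1 motif) on either strand is in capitals. The EN2 and TSHZ2 regions are 142 and 162 bases wide, so the printed bases run past them. Except for its last base, the TAATTA printed at EN2 lies before the start of the region. Over all 295008 consensus regions, 3.8%, 14.3% and 27.5% held these letters in the 200 bases around their middle. The shares were 3.61%, 14.2% and 25.5% of regions in windows of protein-coding genes, and 3.35%, 12.7% and 18.9% of the 418 regions. The matches are letters only.
ALX4, intronic, gained in KO and held in all rescue libraries, chr11:44269878-44270077: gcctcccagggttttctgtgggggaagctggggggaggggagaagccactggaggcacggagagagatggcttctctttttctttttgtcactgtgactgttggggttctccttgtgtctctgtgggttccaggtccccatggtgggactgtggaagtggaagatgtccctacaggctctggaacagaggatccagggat
LHX8, downstream flank in no annotated gene, gained in KO and held in no rescue library, chr1:75170082-75170281: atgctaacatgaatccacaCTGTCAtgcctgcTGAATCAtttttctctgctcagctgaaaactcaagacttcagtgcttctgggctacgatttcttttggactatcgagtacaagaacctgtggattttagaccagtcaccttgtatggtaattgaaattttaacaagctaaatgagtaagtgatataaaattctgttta
LHX6, downstream flank in no annotated gene, lost in KO and held in all rescue libraries, chr9:122201339-122201538: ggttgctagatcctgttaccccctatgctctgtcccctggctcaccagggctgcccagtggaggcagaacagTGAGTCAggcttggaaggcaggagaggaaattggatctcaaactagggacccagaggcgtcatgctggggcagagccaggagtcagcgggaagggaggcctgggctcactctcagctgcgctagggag
TSHZ2, intronic, lost in KO and held in no rescue library, chr20:52993197-52993396: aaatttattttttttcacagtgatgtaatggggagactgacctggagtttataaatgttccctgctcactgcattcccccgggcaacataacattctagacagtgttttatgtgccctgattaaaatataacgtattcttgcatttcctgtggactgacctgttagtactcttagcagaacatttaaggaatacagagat
EN2, downstream flank in no annotated gene, peak in KO1 only among WT, KO1 and KO2, chr7:155471776-155471975: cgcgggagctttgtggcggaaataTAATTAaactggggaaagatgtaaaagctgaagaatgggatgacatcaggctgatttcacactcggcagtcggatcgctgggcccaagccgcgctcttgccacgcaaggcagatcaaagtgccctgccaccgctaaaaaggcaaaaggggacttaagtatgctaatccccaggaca
TSHZ3, intron of the longest annotated transcript, peak in KO2 only among WT, KO1 and KO2, chr19:31271245-31271444: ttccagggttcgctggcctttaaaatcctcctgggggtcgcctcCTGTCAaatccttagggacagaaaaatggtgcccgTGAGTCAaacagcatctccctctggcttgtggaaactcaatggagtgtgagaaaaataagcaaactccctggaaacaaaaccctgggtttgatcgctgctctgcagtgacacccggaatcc

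Among the 13 gained regions, 6 held TGANTCA, 5 held TGACAG and 1 held TAATTA. Of the 15 lost regions, 2 held TGANTCA, 3 held TGACAG and 1 held TAATTA. The 13 regions private to KO2 held these letters in 5, 3 and 2 cases. With 13 to 15 regions these counts are descriptions, and no test was made.

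The largest difference between KO and WT was at TSHZ3, a teashirt zinc-finger homeobox gene that acts in ureteric smooth muscle and neurons (chr19:31149979-31349436, minus strand). Its window held 599, 592 and 578 bases under peaks in WT, 2089, 2737 and 2364 in KO1 and 5654, 4381 and 6441 in KO2. The rescue libraries held 6346, 5529 and 6265 bases in Rescue1 and 9016, 8417 and 7514 in Rescue2. Every KO library was above every WT library, every KO2 library above every KO1 library, and the rescue libraries overlapped KO2 or lay above it. The mean was 589.7 ± 10.7 bases in WT (SD, n = 3) and 3944.3 ± 1830.0 in KO (SD, n = 6), a log2 difference of 2.43 (SE 0.11, limma, Benjamini-Hochberg adjusted p = 7.29e-10). KO2 exceeded KO1 by 1.15 (SE 0.13, limma adjusted p = 6.16e-05), with means of 5492.0 ± 1039.5 and 2396.7 ± 325.2 bases (SD, n = 3 each). Rescue2 exceeded KO2 by 0.60 (SE 0.13, limma adjusted p = 0.00526). In rescue against KO the fit gave 0.95 (adjusted p = 2.48e-06), but the libraries overlapped and the gene was not called.

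The window of TSHZ3 held 40 consensus regions, of which WT libraries occupied 3. The promoter had no base under a peak in WT, 214, 474 and 142 in KO1, 751, 596 and 653 in KO2, 791, 779 and 883 in Rescue1 and 822, 1188 and 775 in Rescue2. A region centred 1519 bases upstream of the start was occupied in all 15 libraries and lay outside the promoter window. There were 5 gained regions, at 3 bases upstream and at 11201, 195122, 196341 and 208606 bases downstream of the start, and all were held in every rescue library. The 6 regions private to KO2 lay from 1907 bases upstream to 117028 bases downstream, and all were also held in every rescue library, as were 27.4% of all regions private to KO2. The gene record is long because it includes a transcript with no defined coding sequence that runs past the main coding transcript, and the regions farthest from the start lie beyond the main coding transcript. Within 2 Mb, 23 other genes had a median log2 difference of -0.25 in KO against WT, with 1 called higher and 8 lower, the opposite direction to TSHZ3. In rescue against KO the same neighbours had a median of 0.39, with 11 called higher and 1 lower. The part of the neighbourhood in the TSHZ3 values was not tested.

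The promoter of TSHZ3, empty of peaks in WT and occupied in the other 4 groups, and that of EVX1 are printed from RefSeq (GRCh38.p14), from 250 bases before to 50 after the start, on the gene's strand and with the same capitals. RefSeq entries were matched for 29 of the 43 genes, and none was matched for DLX5 or ALX1. Of all 35116 RefSeq promoters of this length, 4.84% held TAATTA, 15.8% TGACAG and 7.71% TGANTCA.
TSHZ3, chr19:31349387-31349686, minus strand: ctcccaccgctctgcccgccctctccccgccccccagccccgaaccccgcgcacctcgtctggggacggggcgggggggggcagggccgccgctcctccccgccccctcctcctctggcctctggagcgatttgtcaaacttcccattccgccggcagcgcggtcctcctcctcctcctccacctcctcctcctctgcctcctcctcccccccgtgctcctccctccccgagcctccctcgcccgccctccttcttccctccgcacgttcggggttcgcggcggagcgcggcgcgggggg
EVX1, chr7:27242552-27242851, plus strand: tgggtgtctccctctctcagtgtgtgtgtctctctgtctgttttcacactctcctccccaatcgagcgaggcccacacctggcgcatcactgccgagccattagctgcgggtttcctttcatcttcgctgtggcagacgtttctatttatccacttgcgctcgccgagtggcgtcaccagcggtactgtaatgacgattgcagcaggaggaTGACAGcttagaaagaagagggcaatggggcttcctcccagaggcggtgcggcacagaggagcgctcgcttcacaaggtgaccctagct
The TSHZ3 promoter is 76.0% G and C and held none of the 3 motifs, and the EVX1 promoter is 57.0% G and C and held TGACAG.

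**Figure D2:**
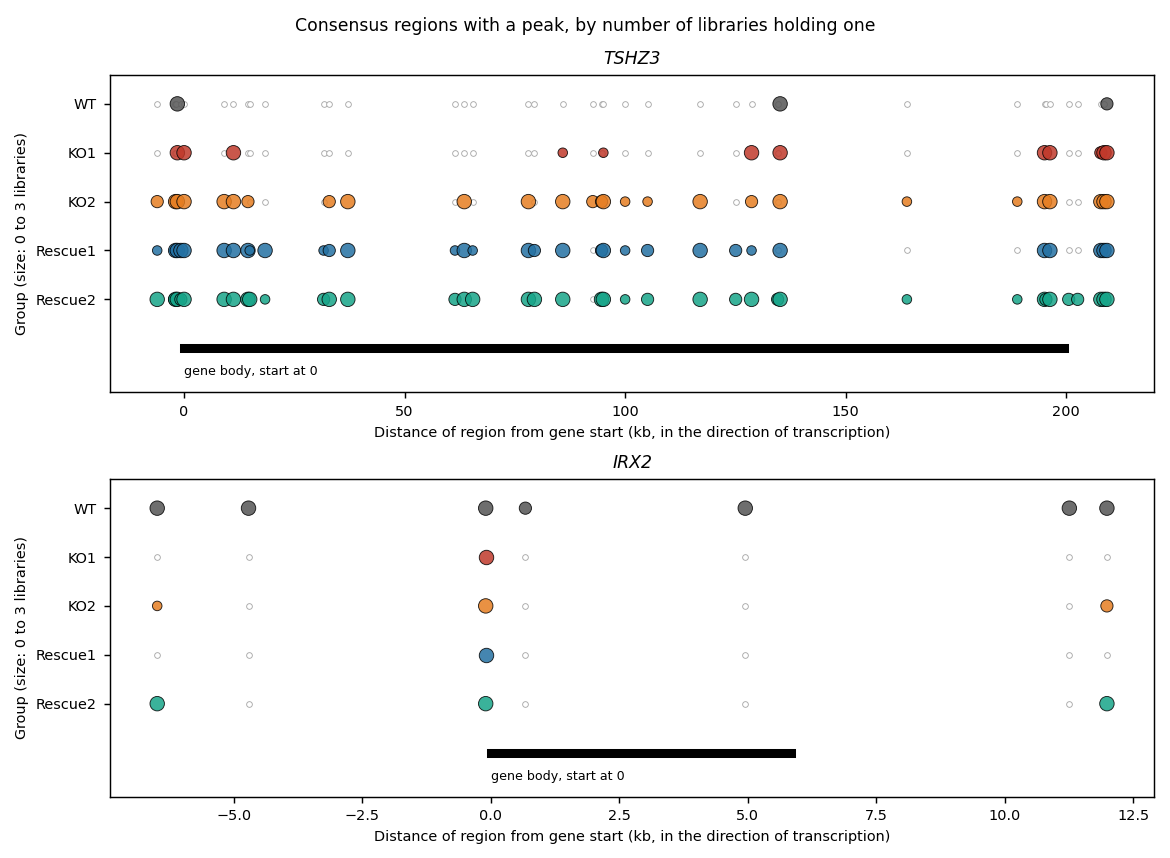
Consensus regions in the TSHZ3 and IRX2 windows by distance from the gene start in kb (x axis), for the 5 groups (rows); filled circles grow with the number of libraries holding a peak (1 to 3), small open circles mark none, and the black bar is the gene body. At TSHZ3, WT has 3 occupied regions of 40 and the rescue clones have most of them, while at IRX2 the WT row has all 7 regions and KO1 and Rescue1 keep only the promoter region.

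The other teashirt genes moved less. TSHZ2 (chr20:52972358-53495330) held 6418, 5796 and 5815 bases in WT, 6908, 7761 and 7235 in KO1 and 6588, 5971 and 7610 in KO2. Rescue1 held 4600, 4586 and 4702 bases and Rescue2 5500, 4836 and 4199. Every rescue library was below every KO library and below every WT library, whereas KO and WT libraries overlapped. Rescue fell below KO by 0.56 on the log2 scale (SE 0.07, limma, Benjamini-Hochberg adjusted p = 5.4e-05, lower in 6 of 6 libraries), with means of 4737.2 ± 429.9 and 7012.2 ± 669.7 bases (SD, n = 6 each). With stricter peaks and with equal lists the libraries overlapped (-0.50 and -0.49) and the call was lost. TSHZ1 ranged from 3433 to 4837 bases over the 15 libraries and was called in neither KO against WT nor rescue against KO. SATB1, a CUT-homeodomain chromatin organiser (chr3:18345377-18445621), held 1835, 1861 and 1558 bases in WT, 2714, 2773 and 2632 in KO1, 2402, 2154 and 2758 in KO2, 1734, 1700 and 2022 in Rescue1 and 3042, 2808 and 2684 in Rescue2. All KO and Rescue2 libraries exceeded all WT libraries, and Rescue1 overlapped WT. The KO difference was 0.53 (SE 0.09, limma adjusted p = 0.000396), from 1751.3 ± 167.9 (SD, n = 3) to 2572.2 ± 245.9 bases (SD, n = 6). Rescue2 exceeded Rescue1 by 0.62 (SE 0.10, limma adjusted p = 0.00326), a call lost with stricter peaks (0.61, overlapping libraries) and equal lists (0.56, adjusted p = 0.0642). A region centred 1718 bases into SATB1 was held in no WT or Rescue1 library, in 3 KO1, 2 KO2 and 3 Rescue2 libraries.

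DLX5 and DLX6, neighbours that drive bone and craniofacial development (chr7:97020396-97024950 and chr7:97005553-97011040), opened in both clones. Their windows overlap, so they share bases and the calls at these genes are not separate observations. A region of 916 bases, chr7:97016428-97017343, lies in both windows and was held by 1 WT library and by every KO and rescue library. DLX5 held 432, 529 and 345 bases in WT, 1107, 1227 and 1254 in KO1, 1376, 1409 and 1539 in KO2, 1335, 994 and 1529 in Rescue1 and 1614, 1505 and 1438 in Rescue2. DLX6 held 766, 708 and 626 bases in WT, 1357, 1528 and 1460 in KO1, 1552, 1479 and 1873 in KO2, 1520, 1634 and 1726 in Rescue1 and 1874, 2000 and 1816 in Rescue2. At both genes all KO and rescue libraries lay above all WT libraries, and KO and rescue overlapped. The KO difference was 1.41 for DLX5 (SE 0.12, limma, Benjamini-Hochberg adjusted p = 6.52e-07), from 435.3 ± 92.0 (SD, n = 3) to 1318.7 ± 153.2 bases (SD, n = 6). For DLX6 it was 1.03 (SE 0.08, limma adjusted p = 3.7e-07), but the gene body alone gave 0.38 and no call. Rescue differed from KO by 0.08 at DLX5 (SE 0.10, adjusted p = 0.589) and 0.18 at DLX6 (SE 0.07, adjusted p = 0.0529), neither called. The DLX5 promoter had no base under a peak in WT and 183 to 606 bases in the other 12 libraries, in a region centred 369 bases into the gene. A region centred 9364 bases upstream of DLX6 was held in all KO, no WT, 1 Rescue1 and 3 Rescue2 libraries.

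The remaining DLX and MSX loci differed little. DLX2 held 2589, 2562 and 2604 bases in WT, 2597, 2537 and 2431 in KO1, 2308, 2407 and 2552 in KO2, 2765, 2745 and 2968 in Rescue1 and 2857, 3038 and 2621 in Rescue2. All rescue libraries were above all KO and WT libraries, by a log2 difference of 0.19 over KO (SE 0.05, limma, Benjamini-Hochberg adjusted p = 0.0116), a call that was lost over the gene body alone (0.21), with 50 kb on each side (0.15), with stricter peaks (0.17), with equal lists (0.20) and with scaling (0.13). DLX1, whose window overlaps that of DLX2, DLX3 and DLX4 ranged from 2736 to 3557, 1195 to 1725 and 1004 to 1362 bases and were called neither in KO against WT nor in rescue against KO. MSX1, a repressor in limb and tooth buds (chr4:4859665-4863936), held 1903, 1469 and 1814 bases in WT, 1602, 1561 and 1511 in KO1, 1274, 1102 and 1381 in KO2, 1944, 1996 and 2136 in Rescue1 and 2050, 1822 and 1789 in Rescue2. KO2 was below WT in every library and KO1 overlapped WT. Rescue exceeded KO by 0.46 (SE 0.07, limma adjusted p = 0.000239, higher in 6 of 6 libraries). The call was lost with equal lists (0.24, adjusted p = 0.085) and, with overlapping libraries, with scaling (0.40). MSX2 ranged from 1475 to 2157 bases and was not called.

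In the IRX family, all 6 loci had a lower mean in KO than in WT, and IRX2, IRX4 and IRX5 were called. IRX1, IRX2 and IRX4 form a cluster on chromosome 5 and IRX3, IRX5 and IRX6 on chromosome 16. IRX2 (chr5:2745845-2751677, minus strand) held 3181, 2771 and 2395 bases in WT, 966, 1042 and 1068 in KO1, 1228, 1240 and 1289 in KO2, 442, 294 and 226 in Rescue1 and 1447, 1395 and 1273 in Rescue2. All 12 KO and rescue libraries were below all WT libraries, and Rescue1 was the lowest group. The mean fell from 2782.3 ± 393.1 (SD, n = 3) to 1138.8 ± 130.4 bases (SD, n = 6), a log2 difference of -1.22 (SE 0.13, limma, Benjamini-Hochberg adjusted p = 5.24e-06). Over the gene body alone it was -0.30 (adjusted p = 0.181), and the promoter stayed occupied in all 15 libraries, so the bases lost lay mostly in the flanks. Rescue2 exceeded Rescue1 by 1.84 (SE 0.15, limma adjusted p = 3.06e-06). Of the 7 regions in its window, 3 were lost in KO and held in no rescue library, at 4717 bases upstream and 4950 and 11257 bases downstream of the start. Their mean fold enrichment percentile was 1.2 to 7.86 within the lists that held them, so they were among the weakest peaks. Regions centred 6494 bases upstream and 11988 downstream were held by 3 WT, 3 Rescue2, no KO1 and no Rescue1 libraries, and by 1 and 2 KO2 libraries.

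IRX4, a ventricle and urogenital patterning gene (chr5:1877413-1887236, minus strand), had no occupied promoter but 3 regions in or near its body. It held 705, 457 and 604 bases in WT, none in any KO1 library, 287, 293 and 378 in KO2, 249, 287 and 558 in Rescue1 and 307, 176 and 86 in Rescue2. WT and KO did not overlap, and KO1 was empty where KO2 was not. KO against WT was called lower (limma, Benjamini-Hochberg adjusted p = 4.11e-05) and KO2 against KO1 higher (limma adjusted p = 0.000193), and no fold is given because KO1 was at 0. With stricter peaks KO2 against KO1 had an adjusted p of 0.398 and WT overlapped KO, over the gene body alone KO2 against KO1 had an adjusted p of 0.0596, and with equal lists KO2 and KO1 did not differ in bases (0.0, adjusted p = 1). Genes near IRX2 and IRX4 were also lower in KO. Within 2 Mb of IRX2, 14 other genes had a median log2 difference of -0.57 in KO against WT, with 6 called lower and 1 higher, and in rescue against KO the median was 0.56, with 5 higher and 1 lower, while IRX2 itself was at -0.67 and not called. Around IRX4, 26 genes had medians of -0.33 and 0.40, and around IRX1 4 genes had medians of 0.01 and 0.39. The part of the neighbourhood in the IRX2 and IRX4 values was not tested.

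IRX6 (chr16:55324203-55330756) separated the clones as well. It held 2496, 1800 and 2084 bases in WT, 812, 829 and 1017 in KO1, 1806, 1568 and 1690 in KO2, 512, 325 and 842 in Rescue1 and 1442, 1291 and 1074 in Rescue2. KO1 and both rescue clones were below every WT library, while KO2 overlapped WT. KO2 exceeded KO1 by 0.86 (SE 0.22, limma, Benjamini-Hochberg adjusted p = 0.046), close to the threshold, and any one of 11 libraries left out raised the adjusted p to between 0.0509 and 0.162. It was also lost with 50 kb on each side (0.40, adjusted p = 0.0776), stricter peaks (0.0858), equal lists (0.102), a pseudocount of 10 (0.0993) and no filter (0.0999). Rescue2 exceeded Rescue1 by 1.12 (SE 0.22, limma adjusted p = 0.0111), which became 0.0623 without Rescue2 replicate 1 and 0.054 without Rescue2 replicate 2. IRX5 held 2209, 2000 and 1978 bases in WT, 1646, 1941 and 1754 in KO1, 1759, 1631 and 1602 in KO2, 1759, 2078 and 1886 in Rescue1 and 2057, 2088 and 1807 in Rescue2. Its KO difference was small, -0.25 (SE 0.08, limma adjusted p = 0.0275). It turned to 0.19 over the gene body alone, was -0.04 with stricter peaks (adjusted p = 0.818) and -0.19 with equal lists (0.16), and lost its call without WT replicate 1 (adjusted p = 0.117), WT replicate 2 (0.0565), KO1 replicate 1 (0.0609) or KO1 replicate 3 (0.0508). IRX1 and IRX3 ranged from 637 to 1895 and 1686 to 2619 bases. IRX1 was not called over both clones but was lower in KO2 than in WT by 0.73 (SE 0.15, adjusted p = 0.00332). The IRX1, IRX2, IRX3 and IRX5 windows held 8 of the 15 lost regions, and 7 of these 8 were held in no rescue library, as were 40.2% of all lost regions.

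Among the LIM-homeodomain genes, LHX8 opened in KO and was low again in rescue, while LHX6 did the reverse. LHX5 was also lower in KO, but its rise in rescue was less firm. LHX8, a regulator of cholinergic neurons and oocytes (chr1:75128434-75161533), held 268, 377 and 159 bases in WT, 726, 935 and 880 in KO1, 786, 473 and 832 in KO2, 118, 152 and 215 in Rescue1 and 188, 173 and 135 in Rescue2. The KO libraries were above all others, and rescue overlapped the lower end of WT. KO exceeded WT by 1.26 (SE 0.19, limma, Benjamini-Hochberg adjusted p = 0.000167), from 268.0 ± 109.0 (SD, n = 3) to 772.0 ± 163.4 bases (SD, n = 6). Rescue fell by 1.71 relative to KO (SE 0.15, limma adjusted p = 1.36e-06), to 163.5 ± 35.7 bases (SD, n = 6). The gene body alone gave 0.51 in KO against WT (adjusted p = 0.0589), and the gained region printed above lies 41748 bases downstream of the start, in the flank. The promoter was occupied in no library. The 15 other genes within 2 Mb had a median of 0.24 in KO against WT, with 8 called higher and none lower, and of -0.20 in rescue against KO, with 5 lower and none higher, and their part in the LHX8 values was not tested.

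LHX6, which acts in forebrain interneurons and teeth (chr9:122202577-122229626, minus strand), held 1836, 1583 and 2010 bases in WT, 1273, 1063 and 1247 in KO1, 1138, 925 and 1323 in KO2, 2143, 2105 and 1827 in Rescue1 and 2375, 2130 and 1971 in Rescue2. All KO libraries were below all WT and all rescue libraries, and WT and rescue overlapped. KO was lower than WT by a log2 difference of -0.60 (SE 0.11, limma, Benjamini-Hochberg adjusted p = 0.000821), from 1809.7 ± 214.7 (SD, n = 3) to 1161.5 ± 149.7 bases (SD, n = 6). Rescue was above KO by 0.80 (SE 0.09, limma adjusted p = 9.95e-06), at 2091.8 ± 183.9 bases (SD, n = 6). Both differences were called under all 10 alternatives and with any library left out. The region printed above, in the downstream flank, was held by 3 WT, no KO and all 6 rescue libraries, and a second region in the gene body by 3 WT, no KO, 3 Rescue1 and 2 Rescue2 libraries. The promoter was occupied throughout.

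LHX5, a forebrain and cerebellar regulator (chr12:113462033-113472280), held 1598, 1442 and 1027 bases in WT, 491, 506 and 620 in KO1, 884, 629 and 885 in KO2, 941, 886 and 1111 in Rescue1 and 1257, 1068 and 973 in Rescue2. The KO difference was -0.93 (SE 0.14, limma, Benjamini-Hochberg adjusted p = 0.00016), from 1355.7 ± 295.1 (SD, n = 3) to 669.2 ± 176.1 bases (SD, n = 6). Rescue exceeded KO by 0.59 (SE 0.11, limma adjusted p = 0.00119), but over the gene body alone the difference was -0.10, and the call was also lost with 50 kb on each side (0.36), stricter peaks (0.45) and equal lists (0.30, adjusted p = 0.0814). The groups were barely apart, with 885 bases in the highest KO library and 886 in the lowest rescue library. Against KO2 alone, LHX5 was called in neither rescue clone, whereas LHX6 was called in each. A region centred 15857 bases downstream of the start was held by 3 WT, no KO1, 1 KO2 and all rescue libraries, while 1 at 4922 bases was held by 3 WT and 2 KO1 libraries and by none of KO2 or rescue. LHX2, LHX4 and LHX9 ranged from 475 to 1730, 2363 to 3169 and 1912 to 2827 bases and were not called in either main comparison. LHX3, a pituitary regulator, was near the limit of the data. Its window held 94, 82 and 0 bases in WT, 167, 80 and 91 in KO1, 205, 105 and 192 in KO2, none in Rescue1 and 0, 83 and 0 in Rescue2.

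ALX1, a paired-like gene of craniofacial mesenchyme (chr12:85280220-85301784), differed most between the knockout clones. It held no base under a peak in WT or KO1, 815, 710 and 773 in KO2, 274, 241 and 236 in Rescue1 and 833, 824 and 778 in Rescue2. A single region of 928 bases at the start of the gene, chr12:85279983-85280910, held all of these bases. KO2 exceeded KO1 (limma, Benjamini-Hochberg adjusted p = 7.11e-13), with 766.0 ± 52.8 bases against 0 in all 3 KO1 libraries (SD, n = 3), and no fold is given against 0. Rescue2 exceeded Rescue1 by 1.38 on the log2 scale (SE 0.07, limma adjusted p = 1.74e-08), with 811.7 ± 29.5 and 250.3 ± 20.6 bases (SD, n = 3 each). KO2 and Rescue2 overlapped. Within 2 Mb, 6 other genes had a median difference of 0.06 between KO2 and KO1, and none was called.

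**Figure D3:**
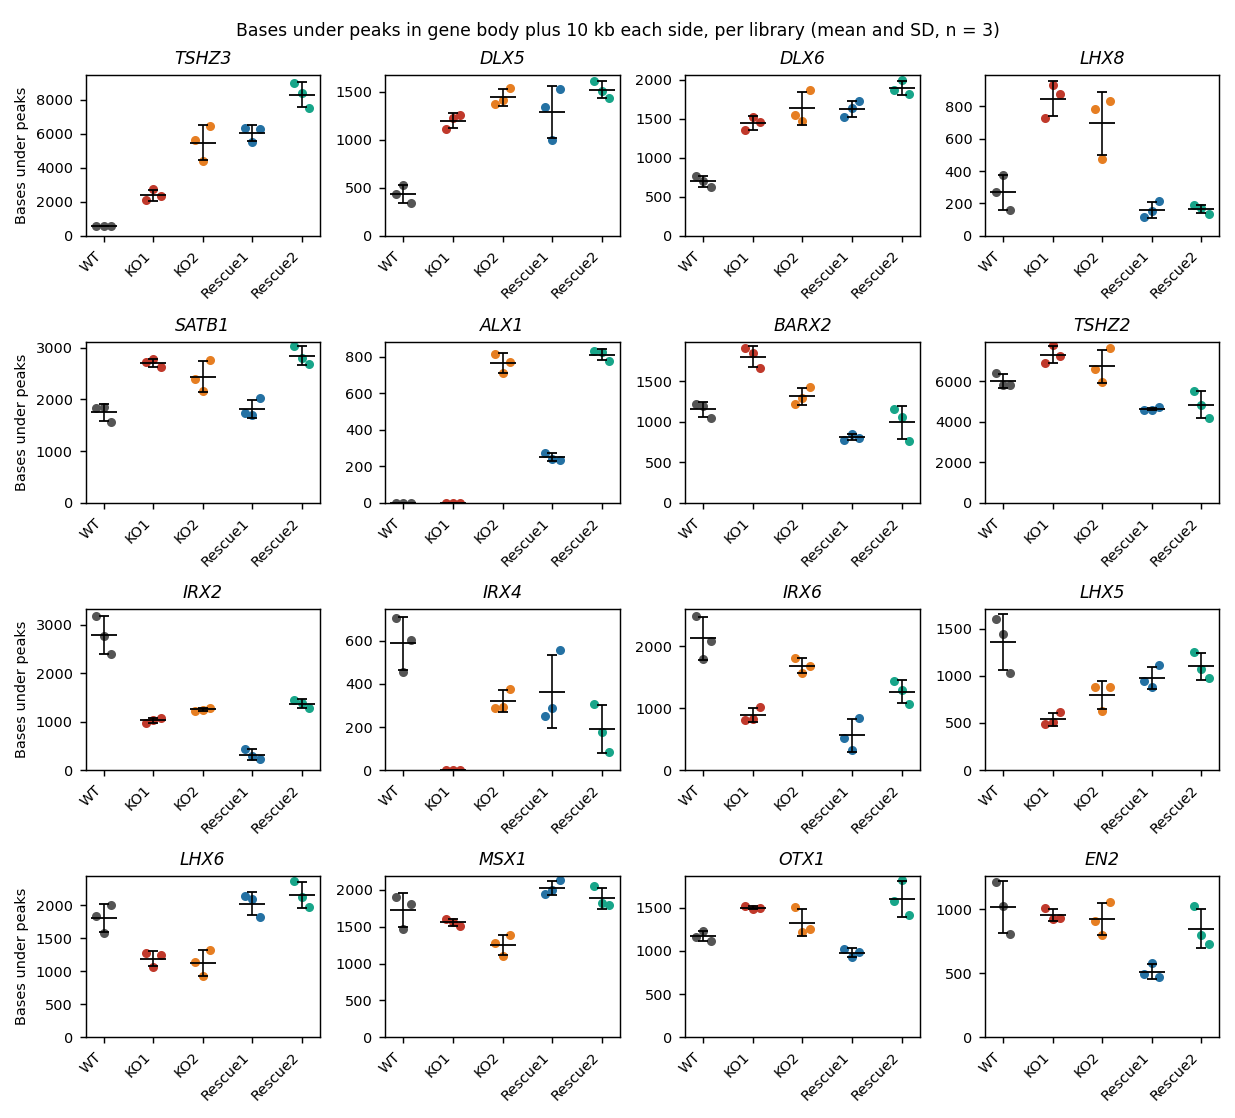
Bases under peaks in the gene body plus 10 kb on each side (y axis, from 0) for 16 loci in the 5 groups (x axis); points are libraries, horizontal bars the means and error bars the SD (n = 3). TSHZ3, DLX5 and DLX6 are higher in KO and stay so in rescue, LHX8 is high in KO alone, LHX6 is low in KO alone, and ALX1 is at 0 in WT and KO1.

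The other paired-like genes changed less. PITX1, a hindlimb and pituitary gene (chr5:135027734-135034813), held 1548, 1308 and 1322 bases in WT, 2063, 2105 and 1955 in KO1, 1631, 1578 and 2344 in KO2, 1814, 1970 and 1850 in Rescue1 and 2185, 2202 and 1705 in Rescue2. All 12 KO and rescue libraries were above all WT libraries. The KO difference was 0.45 (SE 0.12, limma, Benjamini-Hochberg adjusted p = 0.0102), but 0.0518 was the adjusted p without WT replicate 2, and the libraries overlapped with stricter peaks (0.50) and equal lists (0.53). ALX4, a limb and skull gene (chr11:44260440-44310139), held 1478, 1384 and 1304 bases in WT, 2251, 1730 and 1675 in KO1, 1842, 1631 and 2185 in KO2, 1356, 1795 and 1971 in Rescue1 and 1958, 2269 and 1926 in Rescue2. Its KO difference was 0.41 (SE 0.12, limma adjusted p = 0.0253), lost without WT replicate 2 (adjusted p = 0.0732), WT replicate 3 (0.102) or KO1 replicate 1 (0.0507), and with 50 kb on each side (0.38, overlapping libraries). The intronic ALX4 region printed above was nonetheless absent from all 3 WT lists and present in the other 12, with a mean fold enrichment percentile of 71.6.

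OTX1, a brain and sense-organ gene (chr2:63050057-63057836), held 1159, 1234 and 1120 bases in WT, 1518, 1484 and 1494 in KO1, 1512, 1222 and 1254 in KO2, 1026, 929 and 987 in Rescue1 and 1579, 1824 and 1412 in Rescue2. KO1 was above WT by 0.33 (SE 0.10, limma, Benjamini-Hochberg adjusted p = 0.0221), KO2 overlapped WT, and Rescue1 was below every other library. Rescue2 exceeded Rescue1 by 0.65 (SE 0.10, limma adjusted p = 0.00142), but the gene body alone gave 0.17 (adjusted p = 0.303), stricter peaks 0.62 (0.0706) and equal lists 0.70 (0.0537). GSC, SHOX2 and OTX2 were called in neither main comparison. GSC ranged from 348 to 812 and SHOX2 from 1850 to 2710 bases. GSC was higher in KO2 than in WT by 0.61 (SE 0.15, limma adjusted p = 0.00963), and lower in Rescue2 than in KO2 by a log2 difference of -0.80 (SE 0.15, limma adjusted p = 0.00216).

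EVX1, an even-skipped homologue at the end of the HOXA cluster (chr7:27242700-27250493), held 1745, 1532 and 1483 bases in WT, 2263, 1907 and 2690 in KO1, 2171, 2155 and 2374 in KO2, 2454, 2255 and 2190 in Rescue1 and 2313, 1979 and 1843 in Rescue2. All KO and rescue libraries were above all WT libraries. The KO difference was 0.48 (SE 0.10, limma, Benjamini-Hochberg adjusted p = 0.00251), and with 50 kb on each side it was 0.17 (adjusted p = 0.166), and with stricter peaks 0.51 with overlapping libraries. Its promoter was occupied in 3 KO1 libraries, by 81, 88 and 273 bases, in 1 KO2 and 1 Rescue2 library, by 88 and 81 bases, and in no WT or Rescue1 library, so the overlaps were mostly narrow. BARX2, a muscle and epithelial gene (chr11:129375848-129452279), held 1221, 1200 and 1047 bases in WT, 1905, 1844 and 1659 in KO1, 1225, 1298 and 1430 in KO2, 778, 851 and 806 in Rescue1 and 1160, 1063 and 769 in Rescue2. KO1 stood above WT and KO2 lay just above it, and the KO difference of 0.39 (SE 0.10, limma adjusted p = 0.0123) lost its call without WT replicate 3 (adjusted p = 0.0736), and with stricter peaks (0.40) or scaling (0.28) through overlapping libraries. Rescue was below KO by a log2 difference of -0.72 (SE 0.08, limma adjusted p = 1.68e-05, lower in 6 of 6 libraries), with overlap under 50 kb on each side (-0.46) and stricter peaks (-0.72). The BARX2 promoter held 625 to 751 bases in KO1, 391 to 458 in WT, 288 to 427 in KO2, where 2 of 3 libraries were below WT, and 96 to 171 in the rescue libraries.

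EN2, a midbrain-hindbrain gene (chr7:155458129-155464831), held 1217, 1030 and 811 bases in WT, 1012, 925 and 933 in KO1, 912, 803 and 1054 in KO2, 491, 578 and 471 in Rescue1 and 1023, 796 and 728 in Rescue2. Rescue1 was below every other library. Rescue2 exceeded Rescue1 by 0.62 (SE 0.14, limma, Benjamini-Hochberg adjusted p = 0.03), which rose to 0.115 and 0.0957 without Rescue1 replicates 1 and 3, and to 0.165 and 0.0853 without Rescue2 replicates 1 and 2. The gene body alone gave 0.0 (adjusted p = 1), so the difference lay in the flanks, and 50 kb on each side gave 0.32 (0.0912), stricter peaks 0.49 (0.0958) and no filter 0.62 (0.06). EN1 ranged from 775 to 1350 bases and BARX1 from 317 to 697, and neither was called. NKX6-1, a pancreatic and motor neuron gene (chr4:84491985-84499292), held 1257, 1262 and 1024 bases in WT, 1428, 1486 and 1521 in KO1, 1372, 1362 and 1562 in KO2, 1447, 1495 and 1403 in Rescue1 and 1373, 1552 and 1287 in Rescue2. Its KO difference was 0.28 (SE 0.08, limma adjusted p = 0.0167), and without WT replicate 3 it was 0.19 (adjusted p = 0.12). With equal lists it was 0.04 (adjusted p = 0.846), and with stricter peaks (0.31) and scaling (0.18) the libraries overlapped. NKX2-5, the cardiac homeobox gene, held 96 to 452 bases, with KO and WT overlapping, and was not called.

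The MEIS and PBX genes held peaks in every library. PBX3 (chr9:125747345-125967377) held 4993, 4253 and 4350 bases in WT, 3989, 4188 and 4345 in KO1, 3765, 3885 and 5058 in KO2, 3838, 3149 and 3533 in Rescue1 and 5663, 5106 and 4671 in Rescue2. WT and KO overlapped, and Rescue2 exceeded Rescue1 by 0.54 (SE 0.12, limma, Benjamini-Hochberg adjusted p = 0.0226). That call was lost without Rescue1 replicate 2 (adjusted p = 0.122), Rescue1 replicate 3 (0.0548), Rescue2 replicate 1 (0.128) or Rescue2 replicate 2 (0.086), over the gene body alone (0.0631), with stricter peaks (0.0648) and with equal lists (0.111). MEIS1, MEIS2 and PBX2 ranged from 4527 to 6284, 4084 to 6198 and 2984 to 3575 bases, and none was called in any of the 8 comparisons. The promoters of all 4 genes were occupied in all 15 libraries. The PBX2 window holds the starts of 4 other genes (AGER, AGPAT1, GPSM3 and RNF5), and those of LHX9, SHOX2, TSHZ1 and SATB1 hold 1 each, so bases there need not belong to the homeobox gene. A region of 876 bases centred 65953 bases into MEIS2 was absent in WT and present in the other 12 libraries.

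To ask which changes were shared by the clones, each was set against WT, and the clones share these WT libraries. KO1 had 10 of 42 loci higher, where 11.5% of all genes were, and 5 lower, where 10.9% were. KO2 had 8 higher, where 12.2% were, and 6 lower, where 8.21% were. With scaling to total bases the splits were 11 higher and 11 lower for KO1 and 10 higher and 16 lower for KO2. Over all genes the scaled splits were 2317 higher and 5559 lower for KO1 and 2243 higher and 6439 lower for KO2. TSHZ3, DLX5, DLX6, LHX8, SATB1 and EVX1 were higher in each clone by these tests, and IRX2, LHX5 and LHX6 lower. The differences in KO1 and KO2 were 1.85 and 3.0 at TSHZ3, 1.29 and 1.54 at DLX5, 1.40 and 1.13 at LHX8, -1.35 and -1.08 at IRX2, and -0.56 and -0.64 at LHX6. Directly compared, KO2 was higher than KO1 at 4 loci (ALX1, IRX4, IRX6 and TSHZ3), where 2.34% of all genes were, and lower at none, where 0.671% were. With lists of equal length the split was 2 higher and 3 lower, where 348 and 290 of all genes were. The full lists held 220315 to 254650 peaks in KO2 and 204028 to 216023 in KO1. With scaling the split was 5 higher and 3 lower, where 738 and 506 of all genes were. Among the other 98 homeobox genes, 5 were higher and 1 lower.

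**Figure D4:**
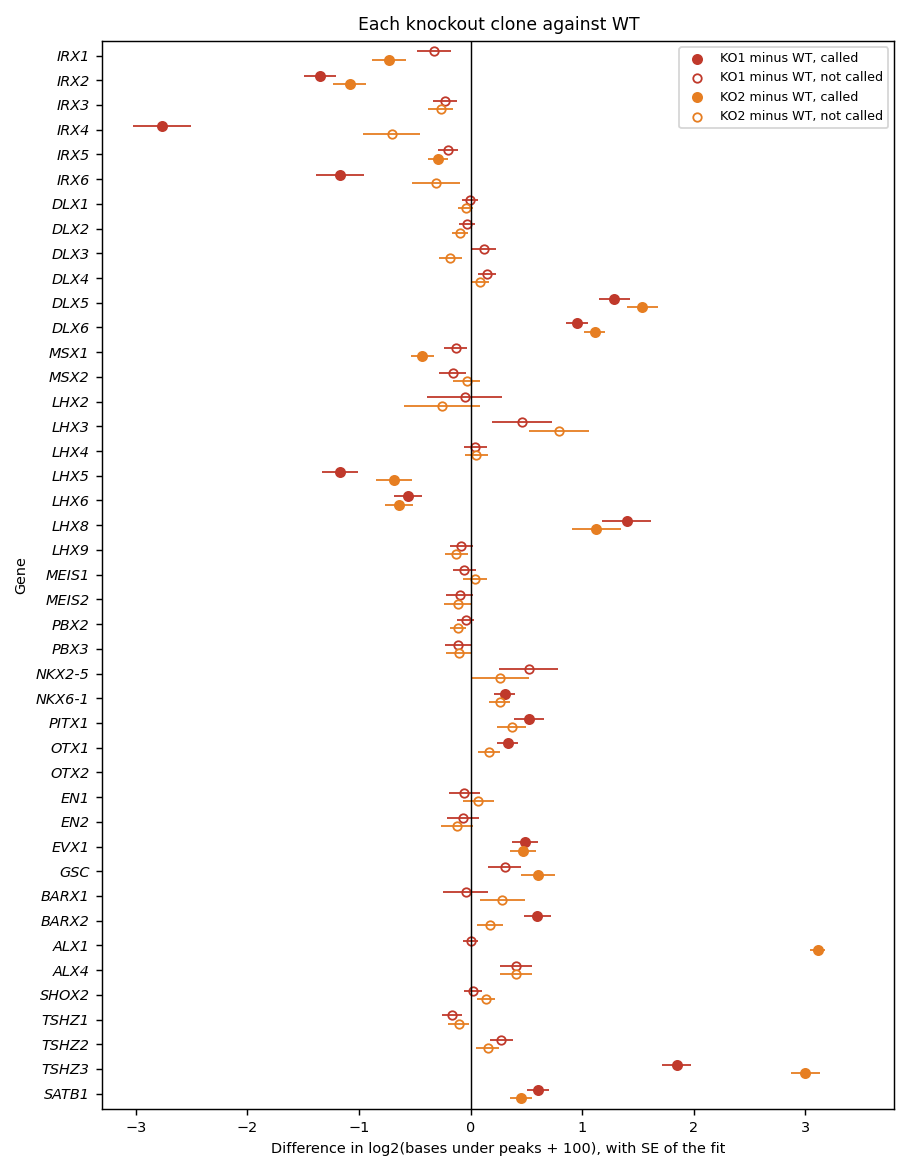
Difference in log2(bases + 100) between each knockout clone and WT (x axis) for the 43 genes (rows), KO1 in red and KO2 in orange; bars are the SE of the fit and filled points passed the call. TSHZ3 and ALX1 reach 3.0 and 3.11 in KO2, IRX4 reaches -2.77 in KO1 where it had no peak, ALX1 had none in WT, so both values depend on the added 100 bases, and most genes lie near 0; OTX2 was not fitted.

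Re-expression of SETD2 was set against the knockout clones. In rescue against KO, 4 loci (DLX2, LHX5, LHX6 and MSX1; 9.52%) were higher, where 10.0% of all genes were, and 3 (BARX2, LHX8 and TSHZ2; 7.14%) lower, where 2.75% were. With scaling the split was 3 higher and 4 lower, where 2027 and 1025 of all genes were. The median of the list was 0.03, against 0.10 over all genes. Of the 10 loci higher in KO, LHX8 and BARX2 were lower in rescue, and of the 5 loci lower in KO, LHX5 and LHX6 were higher in rescue, though the comparisons share the KO libraries. LHX5 was called in neither rescue clone against KO2 alone. TSHZ3, DLX5, DLX6, PITX1, EVX1, ALX4, SATB1 and NKX6-1 were not called lower in rescue than in KO. Of these, SATB1 alone was called lower in Rescue1 against KO2, and none was called lower in Rescue2 against KO2. The other homeobox genes had 8 of 98 in each direction.

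The rescue clones were also set against KO2 alone, and against each other. Rescue1 against KO2 gave 2 loci higher, where 7.43% of all genes were, and 10 lower, where 5.8% were. With equal lists this became 4 higher and 5 lower, where 1893 and 934 of all genes were. Rescue2 against KO2 gave 6 higher, where 14.3% were, and 5 lower, where 3.05% were. LHX6 and MSX1 were higher in each clone, by 0.80 and 0.89 at LHX6 and 0.66 and 0.56 at MSX1, and BARX2, LHX3, LHX8 and TSHZ2 lower. With scaling the splits were 6 higher and 10 lower for Rescue1 and 4 higher and 6 lower for Rescue2. Over all genes they were 3778 higher and 1548 lower for Rescue1 and 2514 higher and 1478 lower for Rescue2. Rescue2 exceeded Rescue1 at 7 loci (ALX1, EN2, IRX2, IRX6, OTX1, PBX3 and SATB1), where 2.41% of all genes were higher, and was lower at none, where 0.234% were. With scaling this was 7 higher and 1 lower, where 436 and 366 of all genes were. The Rescue2 lists held 65153655, 64492891 and 54048272 bases under peaks and the Rescue1 lists 54594611, 53148043 and 58325250. With equal lists, 4 of the 7 calls remained and those at OTX1, SATB1 and PBX3 were lost. Of the other homeobox genes, 2 of 98 were higher and 1 lower in this comparison.

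Non-overlap of the libraries is part of each call, so an exact two-sided permutation test of mean bases is at its floor at every called locus (0.0238 for 6 libraries against 3, 0.00216 for 6 against 6 and 0.1 for 3 against 3) and adds nothing to it. Among loci not called in KO against WT, IRX3 alone reached that floor, unadjusted.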

How the data were processed

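ATAC-seq peak lists of 15 RPTEC libraries were used. Per the labels' processing notes, the authors aligned reads to hg38 with BWA 0.7.17 and called peaks with MACS2 2.2.7.1, 1 list per library. Each deposited line holds an interval, a score, a fold enrichment (ratio) over the local background, −log10 p and −log10 q. The authors' DiffBind 2.14.0 read counts were not used here, and duplicate removal is not given in the sources used here. Because the deposited fold, −log10 and score values refer to the background of their own list, only intervals were compared between libraries, and the other columns served to order or filter peaks inside each list. More reads give more called peaks, which moves the bases counted.

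Peaks on the main chromosomes were summed over gene windows (GENCODE v44) and merged (at least 1 bp shared, at least 2 libraries) into 295008 consensus regions. A group-means model was fitted with limma 3.58.1 in R 4.3.3 on log2(bases + 100) for genes with bases in at least 3 libraries, with Benjamini-Hochberg adjustment over all 19229 genes. The script was tested on simulated data. Genes given with every library are those called in KO against WT, rescue against KO, KO2 against KO1 or Rescue2 against Rescue1, or with an all-or-none promoter. The 43 members, the lists and the tests were chosen with earlier results of these data known. Alternatives were other windows, pseudocounts, filters, stricter or equally long lists, scaling, a replicate block and leaving out each library. Same-numbered libraries of different groups were not correlated (-0.172 to 0.052, 30 pairs).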

Additional observations from a re-analysis of the deposited data

Results flagged for a closer look

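Differences between clones of the same genotype stood out at 11 comparisons of single loci, each by the limma test of the difference itself on log2(bases + 100). Between the knockout clones, KO2 exceeded KO1 by 3.11 at ALX1, 2.06 at IRX4, 1.15 at TSHZ3 and 0.86 at IRX6. KO1 had no base under a peak at ALX1 and IRX4, so those values depend on the added 100 bases. The IRX6 difference lost its call with 11 of the 15 libraries when each was left out in turn.

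Between the rescue clones, Rescue2 exceeded Rescue1 by 1.84 at IRX2, 1.38 at ALX1, 1.12 at IRX6, 0.65 at OTX1, 0.62 at SATB1, 0.62 at EN2 and 0.54 at PBX3. With each library scaled to its total bases under peaks, 7 loci were higher and 1 lower, where 436 and 366 of all genes were. IRX2 and ALX1 were called under all 10 alternatives and with any library left out, whereas EN2 and PBX3 each lost the call with 4 libraries left out in turn.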

How the results depend on the processing

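The counts rest on called peaks, so they are limited by the threshold of each list, by unknown depth and by 1 clone behind each KO or rescue group and the parental line behind WT. At the loci named, 2 values reversed, both over the gene body alone, IRX5 in KO against WT (0.19) and LHX5 in rescue against KO (-0.1), where the flanks were left out by construction. With only peaks of −log10 q of at least 5, the called loci numbered 9 instead of 15 in KO against WT, 3 instead of 7 in rescue against KO, 2 instead of 4 in KO2 against KO1, 3 instead of 7 in Rescue2 against Rescue1 and 6 instead of 11 in Rescue2 against KO2. With lists of equal length (150000 peaks) they numbered 4 in rescue against KO, 4 in Rescue2 against Rescue1 and 6 in Rescue2 against KO2. Scaling to total bases gave 26 instead of 14 in KO2 against WT and 8 in KO2 against KO1, the adjusted p alone gave 18 in rescue against KO, and gene bodies alone gave 7 in Rescue2 against KO2. Over all genes, scaling gave 6439 lower instead of 1578 in KO2 against WT. All-or-none promoters in KO against WT fell from 2 to 1 with 1 kb upstream only, with stricter peaks and with equal lists. Regions private to KO1 numbered 3 with stricter peaks, 4 with equal lists and 0 with an overlap of 100 bp instead of 1, and regions private to KO2 7 instead of 13 with equal lists. The cause was not tested.

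With each library left out in turn, called loci numbered 12 to 17 in KO against WT, 7 to 8 in rescue against KO, 3 to 5 in KO2 against KO1, 4 to 9 in Rescue2 against Rescue1 (4 without Rescue2 replicate 1 or 2) and 7 to 15 in Rescue2 against KO2 (7 without Rescue2 replicate 2). Lost regions numbered 16 to 23 instead of 15 (23 without WT replicate 3) and regions private to KO1 1 to 5 (2 without WT replicate 1 or 2, 3 without KO1 replicate 1 or KO2 replicate 3, 5 without KO1 replicate 2). Leaving out a library loosens the rule for these patterns while the set of regions stays the same, so these counts could not fall.

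No pairing by replicate number was seen in these values, where the deviations of same-numbered libraries had a median correlation of 0.008. This cannot show whether same-numbered libraries were prepared together, which the labels do not give. With the replicate block the called loci numbered 15 in KO against WT, 7 in rescue against KO, 4 in KO2 against KO1, 7 in Rescue2 against Rescue1 and 9 in Rescue2 against KO2.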
